A study of Mus musculus with 3 samples.

Results

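The genes described here are 10 protease inhibitors and cathepsins of cytotoxic lymphocytes, out of 17121 genes in the deposited table. They were taken by gene symbol, by function (serpins, a cystatin, a cystatin-like inhibitor, and cathepsins that act on granule proteases) and with their levels in these same libraries known, so every value is a description and none is a test of the choice. All 10 were present in the table and all 10 passed the filter on low values in both comparisons. RNA was sequenced from primary CD8+ T cells of wild-type mice, taken from spleen and lymph node and kept in culture for 3 days, with a single sample in each of 3 groups. Cells called young TCR, from 6-week-old animals, were stimulated through CD3 and CD28 (1 µg/ml), part of the T cell receptor complex and a costimulatory receptor. Cells called young TRM, likewise from 6-week-old animals, had IL-15 (20 ng/ml) and TGFβ (5 ng/ml) added to that stimulus, a condition named for tissue-resident memory T cells. Cells called aged TRM had all of these stimuli and came from animals of 18 months. Strain and number of mice per sample are not stated in the labels, and no aged cells without the cytokines were analysed here, so aged TRM differs from young TCR in both age and cytokines.

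Killer T cells store serine proteases, the granzymes, in granules and release them with perforin into a target cell. Granzymes are made as inactive precursors, which cathepsin C activates by removing a dipeptide from the amino end, and cystatin F, the product of Cst7, is an inhibitor that can hold cathepsin C back. Serpins trap a protease by offering a bait segment, the reactive centre loop near the carboxyl end, and intracellular serpins protect a killer cell from granzymes that leak into its own cytosol.

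The unit of level is CPM, counts per 1000000 reads after trimmed-mean (TMM) scaling of the libraries, which held 39915663, 36021887 and 40385477 reads in young TCR, young TRM and aged TRM. Each sample had 2 numbered columns in the table, whose meaning the labels do not give. They were summed and treated as repeat measurements, not as replicates, and no p-value was computed with 1 sample per group. Intervals are 95% counting intervals and cover counting error only. The words rose and fell are kept for genes whose log2 ratio, taken after adding a pseudocount of 1 CPM, was 1 or more in size with a ratio interval that left out 1. In bulk RNA, fewer cells that make a transcript and less transcript per cell cannot be told apart. Defining markers of the labelled cell type were present: Cd8a stood at 747, 1822 and 1632 CPM in the same order of libraries, Cd3e at 302, 380 and 364 CPM, and Cd4 between 10.5 and 12.4 CPM.

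Of the 10 genes, 6 fell and 2 rose in young TRM against young TCR, where 3.6% of 11588 tested genes fell and 4.18% rose (7.78% in either direction). In aged TRM against young TRM, 6 rose and 0 fell, where 2.25% of 11575 tested genes rose and 1.15% fell (3.4% in either direction). These counts describe genes chosen with their values known and are not read against those shares. The median log2 ratio of the 10 was -1.58 in the first comparison and 1.22 in the second, beside 0.02 and -0.01 over all tested genes. The comparisons share the young TRM library, so a low value there enters both. Serpina3g, Ctsw and Ctsc were lowest in young TCR, and the other 7 genes were lowest in young TRM. Of those 7, the 4 clade B serpins and Cst7 were highest in young TCR, and Serpine2 and Ctla2a in aged TRM.

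**Figure D1:**
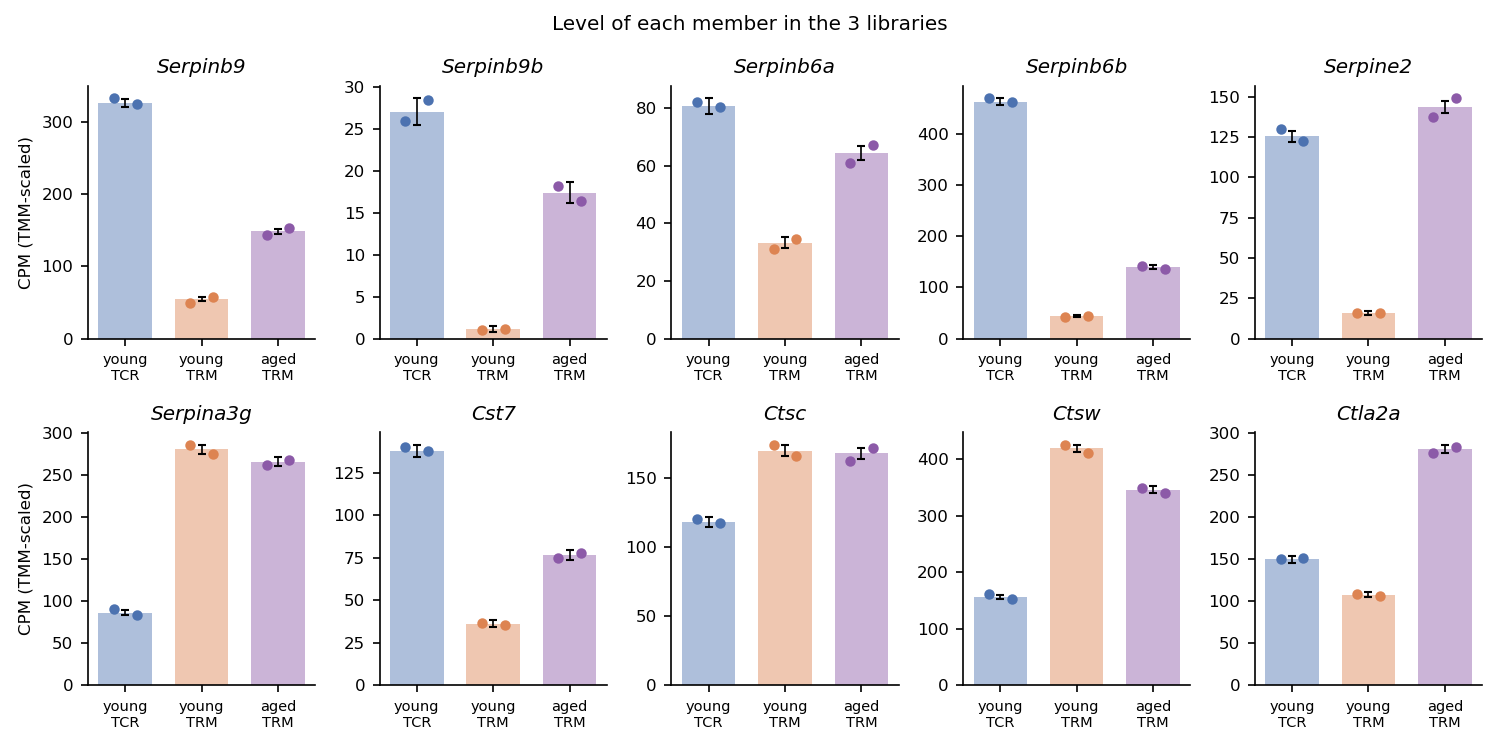
Level of each of the 10 genes (vertical axis, TMM-scaled CPM from 0) in young TCR, young TRM and aged TRM. Bars are the summed library with its 95% counting interval as a black line, and dots are the 2 deposited columns; Serpinb6b falls from 462 to 43.2 CPM between the young libraries while Ctsw stands at 156 and 419 CPM.

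Of the 4 members that fell furthest with the added cytokines, 3 are neighbours (the other is Serpine2), and parts of their sequence show how they are related. Serpinb6b, Serpinb9 and Serpinb9b lie beside each other on chromosome 13 of GRCm38.p6, at positions 32956811 to 32979067, 32997061 to 33017955 and 33027414 to 33040588, and Serpinb6a lies at 33917918 to 34002794 of the same chromosome. The last 180 coding bases before the stop codon, from GENCODE transcripts on GRCm38, are shown for the pairs of closest relatives because this stretch encodes the end of the protein with the reactive centre loop. Capitals mark bases without an identical partner in the other stretch of the pair, bases opposite a gap included. There were 33 such bases in each stretch of the first pair and 40 in each of the second.
Serpinb9: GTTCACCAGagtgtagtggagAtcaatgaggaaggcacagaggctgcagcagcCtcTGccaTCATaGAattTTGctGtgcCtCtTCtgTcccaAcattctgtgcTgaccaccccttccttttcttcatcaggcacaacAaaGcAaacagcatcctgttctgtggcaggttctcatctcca
Serpinb9b: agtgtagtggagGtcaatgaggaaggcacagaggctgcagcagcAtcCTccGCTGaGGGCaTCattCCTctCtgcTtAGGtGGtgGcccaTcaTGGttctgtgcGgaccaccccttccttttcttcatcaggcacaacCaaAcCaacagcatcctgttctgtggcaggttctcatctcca
Serpinb6a: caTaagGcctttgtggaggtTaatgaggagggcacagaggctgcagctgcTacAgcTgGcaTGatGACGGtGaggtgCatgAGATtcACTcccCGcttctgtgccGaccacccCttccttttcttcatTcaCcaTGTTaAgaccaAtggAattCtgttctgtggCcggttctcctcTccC
Serpinb6b: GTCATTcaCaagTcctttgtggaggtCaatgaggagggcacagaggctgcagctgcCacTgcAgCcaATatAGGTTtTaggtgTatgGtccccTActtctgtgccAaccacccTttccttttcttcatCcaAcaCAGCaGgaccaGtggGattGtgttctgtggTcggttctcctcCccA
Of the 33 capitals of Serpinb9, 13 lay in the first 60 bases, 17 in the middle 60 and 3 in the last 60. The corresponding counts for Serpinb6b were 11, 16 and 13. The unbroken capitals that open the stretches of Serpinb9 and Serpinb6b lack a partner because every stretch was cut at 180 bases. The counts of the first 60 bases therefore do not measure divergence alone. Over the whole coding sequence Serpinb9 and Serpinb9b were 86.0% identical and Serpinb6a and Serpinb6b 86.4%, whereas Serpinb9 and Serpinb6b were 68.6% identical. Windows of 50 bases found unchanged in the partner made up 1.21% of Serpinb9 and 0.737% of Serpinb6b. The sources used here do not say how reads that fit several genes were counted, so some reads of such relatives may have been assigned to the wrong copy.

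The stretches before the starts of Serpinb9 and Serpinb9b are also alike, and are shown as those of close relatives. A role of these stretches in the levels was not tested. The 250 bases before the RefSeq start lie at chr13:33004291-33004540 for Serpinb9 and at chr13:33027164-33027413 for Serpinb9b, both on the plus strand. The Serpinb9 stretch lies inside the gene positions given above, so it precedes a start downstream of the first base of the gene. The same holds for the Serpinb6b stretch, at chr13:32965011-32965260. Capitals mark bases that are identical in a local alignment of the pair.
Serpinb9: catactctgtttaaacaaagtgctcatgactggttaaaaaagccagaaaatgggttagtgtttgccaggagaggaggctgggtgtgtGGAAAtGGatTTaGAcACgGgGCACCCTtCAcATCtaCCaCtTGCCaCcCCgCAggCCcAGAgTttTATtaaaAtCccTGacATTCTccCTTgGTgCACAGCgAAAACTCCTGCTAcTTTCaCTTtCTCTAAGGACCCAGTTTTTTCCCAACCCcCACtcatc
Serpinb9b: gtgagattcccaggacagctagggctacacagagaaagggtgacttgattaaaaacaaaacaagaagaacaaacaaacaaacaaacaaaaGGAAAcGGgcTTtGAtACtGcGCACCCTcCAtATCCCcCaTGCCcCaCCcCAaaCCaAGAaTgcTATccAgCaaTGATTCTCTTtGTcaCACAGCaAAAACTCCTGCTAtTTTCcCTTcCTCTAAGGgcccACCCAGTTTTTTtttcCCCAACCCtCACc
In this alignment 118 of 167 columns were identical (70.7%), and it reached from base 163 to base 6 before the start of Serpinb9. Its alignment score of 85 was the highest of 53 pairs among 11 promoters of 9 genes, and the next score was 27. Serpinb6b, which also fell in young TRM and rose in aged TRM, scored 18 with Serpinb9 and 16 with Serpinb9b. Ctsw had no entry in the promoter table. The RefSeq starts of Serpinb9b, Serpinb6b and Serpina3g were not found at the beginning of a GENCODE transcript, so their promoter stretches rest on RefSeq alone.

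Serpinb9 encodes an inhibitor of granzyme B that is held to guard cytotoxic cells against their own protease. It stood at 327 CPM in young TCR, 54.5 CPM in young TRM and 149 CPM in aged TRM. The columns were 334 and 325 CPM, 49.99 and 57.9 CPM, and 143 and 153 CPM, so no column of one library reached the values of another. In young TRM the gene fell 6.01-fold (interval 5.73 to 6.30), and in aged TRM it rose 2.73-fold from there (2.59 to 2.88). The aged library kept 45.5% of the young TCR level.

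Serpinb9b, a close relative whose product inhibits granzyme M, was the least abundant of the 10. It had 1097 reads in young TCR, 38 in young TRM and 707 in aged TRM, or 27.1, 1.08 and 17.4 CPM. The young TRM columns held 16 and 22 reads, so the low level was seen in both. The gene fell 25.1-fold (18.2 to 35.6) and its log2 ratio of -3.75 was the 4th lowest of 11588 genes. In the aged library it rose 16.1-fold (11.6 to 23.0), and its log2 ratio of 3.15 ranked 5th from the top of 11575 genes. With a pseudocount of 5, which shrinks ratios of weakly expressed genes, these log2 ratios were -2.4 and 1.88.

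Serpinb6b, a mouse inhibitor of granzyme A, was the most abundant of the 10 per transcript length in young TCR. It stood at 462 CPM there, 43.2 CPM in young TRM and 139 CPM in aged TRM, and the columns of a library differed by at most 1.05-fold. The gene fell 10.7-fold (10.2 to 11.3) and rose 3.23-fold (3.05 to 3.42), with the aged library at 30.2% of young TCR. That was the smallest share of the young TCR level among the 10 genes.

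Serpinb6a, whose human relative inhibits cathepsin G and trypsin-like proteases, moved less. It stood at 80.6, 33.2 and 64.2 CPM and fell 2.43-fold (2.27 to 2.60) in young TRM. Between the TRM libraries the ratio was 1.94-fold (1.81 to 2.08), a log2 ratio of 0.93 and just short of the threshold. The gene just past the threshold in that comparison was Cst7, at 1.06. Across the 4 pairings of the columns the Serpinb6a value ran from 0.80 to 1.08.

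Serpine2 encodes protease nexin-1, a secreted inhibitor of thrombin and plasminogen activators. It lies on chromosome 1, positions 79794317 to 79858665, apart from the chromosome 13 group. It had 125 CPM in young TCR, 15.8 CPM in young TRM and 144 CPM in aged TRM, where the columns read 137 and 149 CPM. The gene fell 7.96-fold (7.29 to 8.70) in young TRM and rose 9.12-fold (8.36 to 9.97) in aged TRM. It was the only gene of those that fell whose aged level was above that of young TCR, at 115%, and there the log2 ratio was 0.19.

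Cst7, the gene of cystatin F, stood at 138, 36.1 and 76.5 CPM. It fell 3.82-fold (3.60 to 4.07) and rose 2.12-fold (1.99 to 2.26), to 55.4% of the young TCR level. The rise was no longer past the threshold with a pseudocount of 5, where the log2 ratio was 0.99. The columns of each library differed by at most 1.04-fold and did not overlap between libraries.

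Markers of other cells moved with this group in part. The 9 B and plasma cell markers summed to 50.4, 17.5 and 25.4 CPM in young TCR, young TRM and aged TRM, with 6 of 7 tested markers fallen in the first comparison and 3 of 6 risen in the second. The largest of them in young TCR, Cd79b, had 15.5 CPM. The 6 red cell and platelet markers summed to 14.8, 6.87 and 15.9 CPM, with Hbb-bs at 0 reads in young TCR. In that list Ppbp and Pf4 fell in young TRM, while Hbb-bt rose in both comparisons (0.740, 2.50 and 6.15 CPM). Their part in the result was not tested.

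**Figure D2:**
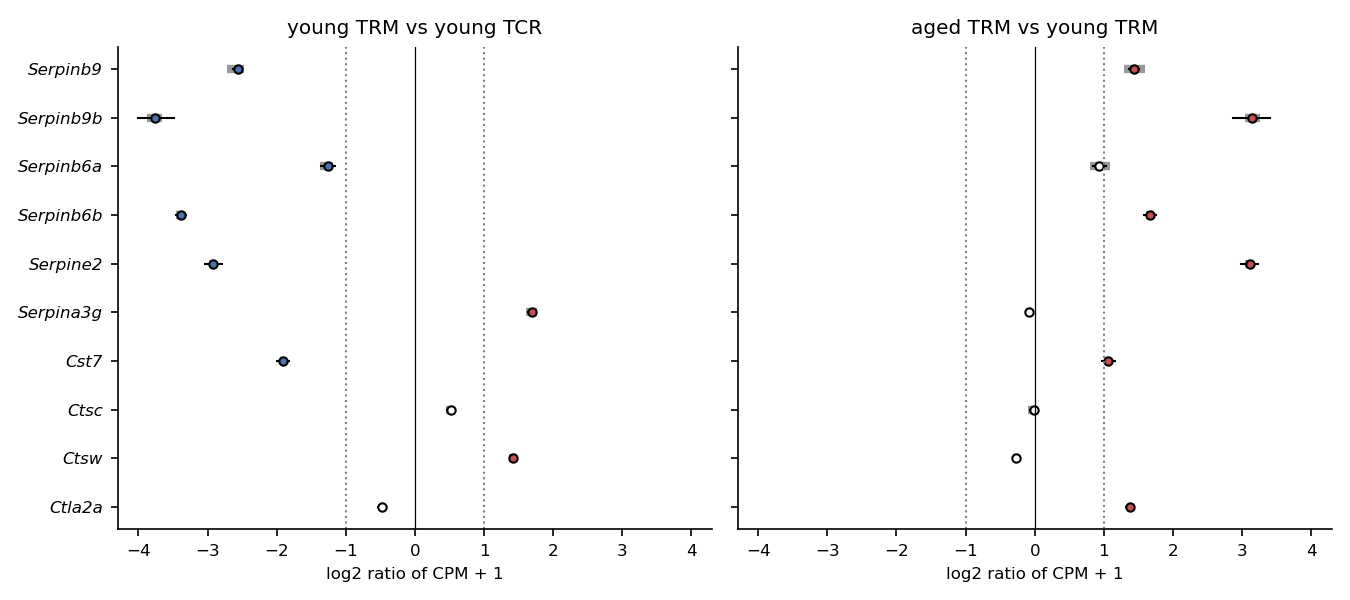
Log2 ratio of CPM + 1 (horizontal axis) of each gene in young TRM against young TCR (left) and aged TRM against young TRM (right). Points are the summed libraries, filled where the gene rose or fell, thin lines are 95% counting intervals, grey lines span the 4 pairings of the columns, and dotted lines mark -1 and 1; Serpinb9b and Serpinb6b lie furthest left at -3.75 and -3.39, and 4 genes on the right are unfilled.

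Higher levels in young TRM than in young TCR were found for Serpina3g and both cathepsins. Serpina3g encodes an intracellular serpin, also called Spi2A, that inhibits lysosomal cathepsins such as cathepsin B and favours survival of memory CD8 T cells. It stood at 85.9 CPM in young TCR, 280 CPM in young TRM and 265 CPM in aged TRM, with columns of 285 and 275 CPM and of 261 and 268 CPM in the TRM libraries. The gene rose 3.26-fold (3.14 to 3.39) with the added cytokines. Between the TRM libraries it differed by a log2 ratio of -0.08, and the interval of that ratio, 0.922 to 0.974-fold, lay far inside 2-fold.

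Ctsw encodes cathepsin W, a cysteine protease largely restricted to cytotoxic T and NK cells whose substrates are not settled. It stood at 156, 419 and 346 CPM, and rose 2.69-fold (2.61 to 2.77) in young TRM. The aged library was lower than young TRM by a log2 ratio of -0.28, which did not pass the threshold. Ctsc, the gene of cathepsin C, stood at 118, 170 and 168 CPM and passed the threshold in neither comparison. Its ratios were 1.44-fold (1.38 to 1.49) in young TRM and 0.988-fold (0.955 to 1.02) in aged TRM. The activator of granzyme precursors was thus measured at its lowest in the library with the most Gzmb, which had 4393 CPM in young TCR, 1251 CPM in young TRM and 2807 CPM in aged TRM. Gzmm was also highest in young TCR, but Gzma (423, 167 and 517 CPM) and Gzmc (31.5, 63.5 and 413 CPM) were highest in aged TRM. A relation of Ctsc to granzyme levels was not tested.

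Among markers of other cells, mast cell and basophil markers also were higher in the TRM libraries, at 2.64, 10.2 and 13.9 CPM in sum over 7 genes, with Mcpt4 and Tpsb2 at 0 reads in young TCR and Mcpt4 at 1 read in each of the others. Myeloid markers summed to 25.9, 40.7 and 26.2 CPM over 9 genes, where Mpeg1 rose from 4.22 to 28.7 CPM, Itgax fell from 8.63 to 3.55 CPM, Cd68 had 9.23 and 5.25 CPM, Adgre1 had at most 2 reads and Fcgr1 at most 1 read. NK and innate lymphoid markers summed to 250, 186 and 187 CPM over 7 genes, of which 5 rose in young TRM (Klrb1c, Kit, Fcer1g, Tyrobp and Ncr1) and Eomes fell. Eomes alone made up 217, 93.5 and 65.1 CPM of these sums, so their fall follows that gene. Kit, the next highest, had 29.6, 78.4 and 110 CPM. The part of cells with any of these markers in the higher levels of Serpina3g, Ctsw and Ctsc was not tested. The other lists were of CD4 T cell (4 genes), neutrophil (6), stromal and endothelial (6) and gamma-delta T cell (1 gene) markers. They summed to 54.2, 2.04, 80.5 and 0.247 CPM in the library where each was highest. Of 3 listed gamma-delta genes only Sox13 was measured, so that sum says little about such cells. Pecam1 made up 76.5 CPM of the stromal and endothelial sum in young TCR, where Col1a1, the next highest, had 1.73 CPM. Within the CD4 T cell list Foxp3, the regulatory T cell factor, rose from 1.95 to 33.6 CPM in young TRM and fell to 3.71 CPM in aged TRM, and Zbtb7b fell from 18.1 to 8.03 CPM in young TRM. The part of Foxp3-positive cells in the results was not tested.

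Ctla2a encodes a small inhibitor that resembles the propeptide of a cysteine cathepsin and inhibits cathepsin L. It stood at 150, 108 and 281 CPM, with columns of 277 and 284 CPM in aged TRM. The log2 ratio of -0.47 between the young libraries did not pass the threshold. In aged TRM the gene rose 2.61-fold (2.52 to 2.71) over young TRM, and its level was 188% of that in young TCR. Its neighbour Ctla2b, at 40.6, 23.9 and 57.8 CPM, also rose in aged TRM (log2 ratio 1.24). The coding sequences of these neighbours were 96.2% identical over 342 aligned bases, and 14.8% of the 50-base windows of Ctla2a were found unchanged in Ctla2b, so their reads may be partly exchanged.

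The promoters of Serpina3g and Ctla2a are shown as examples of the 4 members with matches to searched motifs, Serpina3g lowest in young TCR and Ctla2a highest in aged TRM. The motifs were searched on both strands in the 250 bases before each RefSeq start: AP-1 (TGANTCA), SMAD (GTCTAGAC and CAGACA), STAT (TTCNNNGAA), T-box (TCACACC), RUNX (TGTGGTT), ETS (CCGGAAG) and NF-kB (GGG and TTTCC with 2 bases of any kind between them). Capitals mark the matches. The stretch of Serpina3g is chr12:104235897-104236146 on the plus strand and that of Ctla2a, from the upstream of its 2 listed starts, is chr13:60936626-60936875 on the minus strand.
Serpina3g: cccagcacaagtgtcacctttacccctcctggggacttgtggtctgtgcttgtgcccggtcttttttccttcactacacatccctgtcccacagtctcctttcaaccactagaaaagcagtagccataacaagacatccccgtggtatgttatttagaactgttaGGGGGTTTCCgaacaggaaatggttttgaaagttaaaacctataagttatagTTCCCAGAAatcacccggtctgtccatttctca
Ctla2a: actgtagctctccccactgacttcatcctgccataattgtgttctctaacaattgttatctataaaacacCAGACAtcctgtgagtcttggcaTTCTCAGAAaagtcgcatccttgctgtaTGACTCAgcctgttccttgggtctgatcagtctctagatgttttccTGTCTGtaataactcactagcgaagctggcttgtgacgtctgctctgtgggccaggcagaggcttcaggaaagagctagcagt
Serpina3g held a STAT match that begins 33 bases before the start and an NF-kB match that begins 85 bases before it. Ctla2a held a match to AP-1, a match to STAT and a pair of matches to CAGACA. Of all 32851 promoters of the table, 7.02% held a STAT match, 1.41% an NF-kB match, 6.75% an AP-1 match and 17.1% a CAGACA match. Ctsc held a STAT and a T-box match. Serpinb6a held a STAT and an ETS match before the upstream of its 2 listed starts and none before the other. A T-box match was found in 3.33% and an ETS match in 6.91% of all promoters. No match to any searched motif was found before Serpinb9, Serpinb9b, Serpinb6b, Serpine2 or Cst7, which says only that these letters are not in this window. A match is a description of letters and not a binding site.

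Levels of different genes can be compared per transcript length, in the deposited TPM averaged over the columns. In young TCR the order was Serpinb6b (458 TPM), Cst7 (286), Serpinb9 (247), Ctsw (230), Ctla2a (220), Serpine2 (121), Serpinb6a (113), Serpina3g (91.8), Ctsc (48.4) and Serpinb9b (27.5 TPM). No neighbours in that order overlapped in their columns. In young TRM Ctsw led with 621 TPM, before Serpina3g with 298 TPM and Ctla2a with 158 TPM, while Serpinb6b and Serpinb9 followed far down at 42.4 and 41.2 TPM with overlapping columns. In aged TRM Ctsw (533 TPM), Ctla2a (425 TPM) and Serpina3g (291 TPM) led, and Serpine2 and Serpinb6b, at 143 and 142 TPM, overlapped. Serpinb6b thus went from the highest of the 10 to the middle of the order, and Ctsw from the middle to the highest. Among all genes of the table Ctsw ranked 642nd by TPM in young TCR, 206th in young TRM and 247th in aged TRM.

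Several of these inhibitors have a known protease, so transcripts of inhibitor and protease were set side by side on the TPM scale. The pairs were chosen from background knowledge with the levels known, and transcript ratios do not measure protein. Serpinb9 stood at 4.24 TPM per 100 TPM of Gzmb in young TCR, 2.5 in young TRM and 3.13 in aged TRM. The columns of young TRM gave 2.31 and 2.69, under both columns of the other libraries. Serpinb6b per 100 of Gzma, the gene of granzyme A, stood at 46.4, 11.0 and 11.4. The columns of the TRM libraries overlapped in this ratio (10.7 and 11.3, 12.2 and 10.7). Gzma, like Serpinb6b, was higher in the aged library, at 167 CPM in young TRM and 517 CPM in aged TRM.

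Cst7 stood at 590 TPM per 100 TPM of Ctsc in young TCR, 107 in young TRM and 242 in aged TRM, and the columns of the libraries did not overlap. The cystatin F transcript was thus several times as abundant as that of cathepsin C in young TCR and close to it in young TRM. For Serpina3g per 100 of Ctsb, the gene of cathepsin B, the values were 57.3, 196 and 166. Ctsb itself stood at 166, 160 and 179 CPM. Ctla2a stood at 2004, 1952 and 5644 TPM per 100 TPM of Ctsl, the gene of cathepsin L, which had 11, 8.07 and 7.53 TPM.

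**Figure D3:**
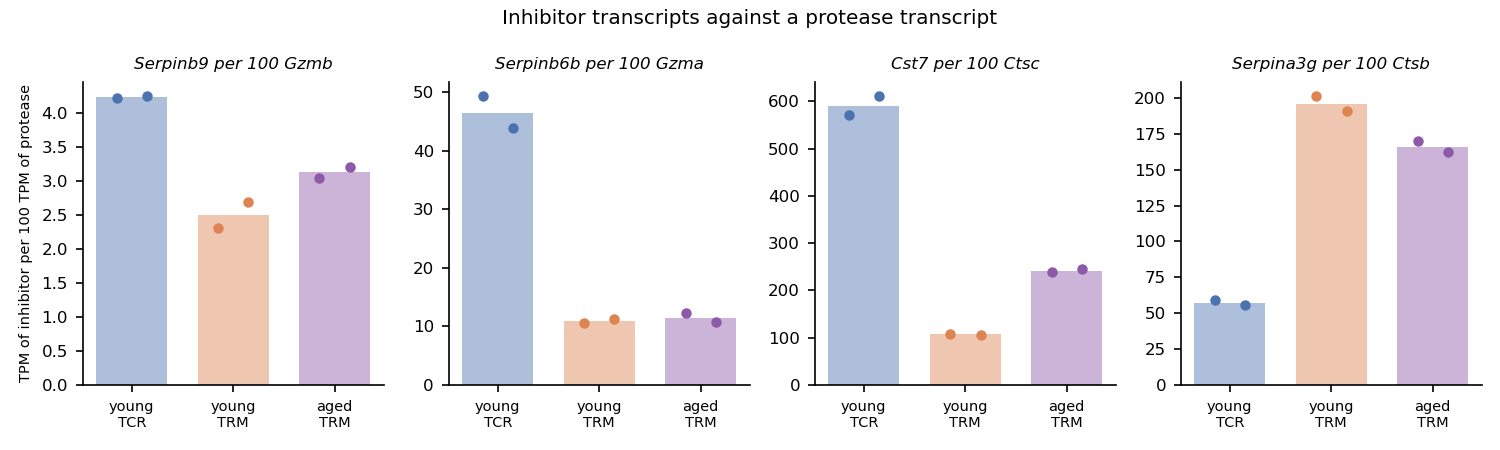
TPM of an inhibitor transcript per 100 TPM of a protease transcript (vertical axis, from 0) in the 3 libraries, for 4 pairs. Bars are the averaged columns and dots the 2 deposited columns; Serpinb9 per 100 Gzmb and Cst7 per 100 Ctsc are lowest in young TRM (2.5 and 107), and Serpina3g per 100 Ctsb is lowest in young TCR (57.3).

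The other genes of the chromosome 13 region are given by position, and a reach of the pattern along the chromosome was not tested. Over all tested genes, 3.6% fell in young TRM. Of the 13 tested genes from 300 kb before Serpinb6b to 300 kb after Serpinb6a, the adjacent run of Serpinb6b, Serpinb9, Serpinb9b and Serpinb1b all fell in young TRM. Serpinb1b, a relative of an inhibitor of neutrophil serine proteases, had 2.86, 0.255 and 0.492 CPM, and its log2 ratio of -1.62 was -0.58 with a pseudocount of 5. Serpinb1a, on the other side of Serpinb6b, had 1.87, 1.67 and 2.21 CPM, close to the filter of 1 CPM. Wrnip1, further out, had 79.2, 75.8 and 77.2 CPM. Serpinb6a fell as well, and near it Nqo2 (12.4 to 5.51 CPM) and Tubb2b (24.2 to 5.82 CPM) fell. Tubb2a, beside Tubb2b, had 40.1, 23.8 and 36.9 CPM. Ripk1, a kinase of death receptor signalling, had 84.4 and 108 CPM in the young libraries. In aged TRM against young TRM the risen genes of this region were Serpinb6b, Serpinb9 and Serpinb9b. These neighbours were named for their position, after their values were seen.

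**Figure D4:**
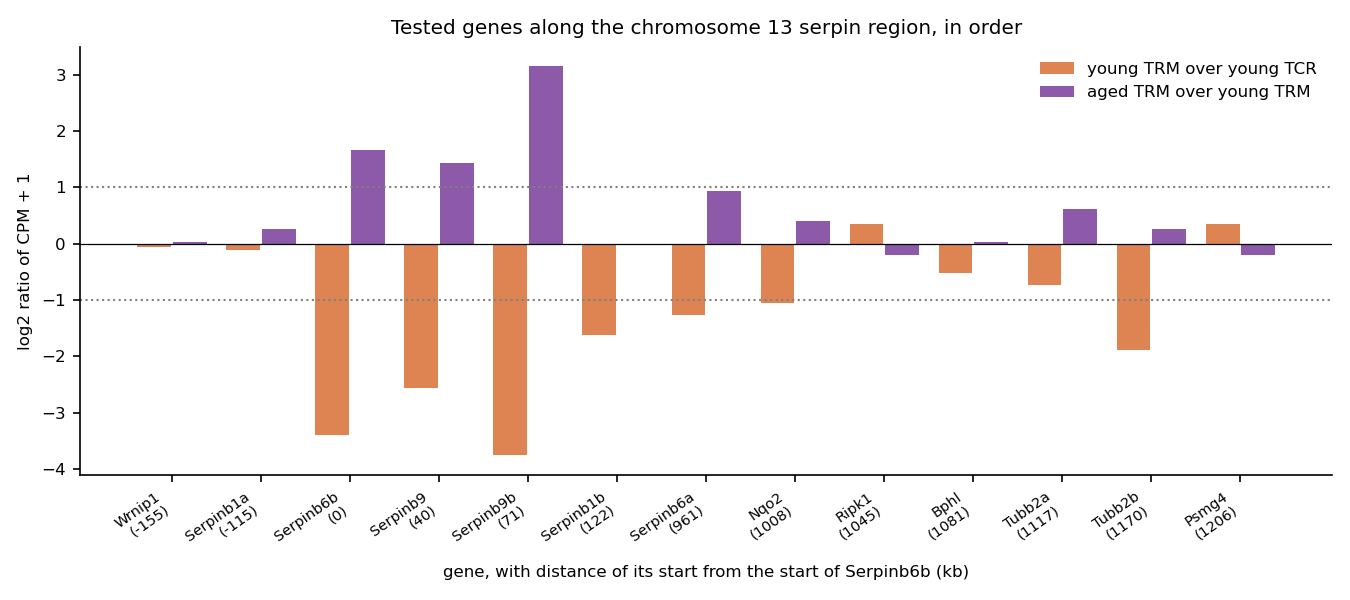
Log2 ratio of CPM + 1 (vertical axis) of the 13 tested genes of the chromosome 13 region, in chromosome order, with the distance of each start from that of Serpinb6b in kb in the label. Orange bars are young TRM over young TCR and purple bars aged TRM over young TRM where the gene was tested. Both share the young TRM library, and dotted lines mark -1 and 1. Serpinb6b, Serpinb9 and Serpinb9b stand out from Serpinb1a and Wrnip1 on their flank. Further along, the orange bars of Serpinb6a, Nqo2 and Tubb2b also pass -1.

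On chromosome 12, Serpina3g (104236147 to 104241939) lies between Serpina3f and Serpina3i, and all 3 rose in young TRM. Serpina3f stood at 27.0, 123 and 135 CPM and Serpina3i at 2.05, 6.75 and 7.31 CPM, the latter no longer past the threshold with a pseudocount of 5 (log2 ratio 0.74). Neither differed by the threshold between the TRM libraries, with log2 ratios of 0.14 and 0.10. Serpina3g and Serpina3f were 87.4% identical over 747 coding bases and shared 1.15% of the 50-base windows of Serpina3g.

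Among all tested genes, 4.18% rose and 3.6% fell in the first comparison, and 2.25% rose and 1.15% fell in the age comparison. The list counts in this paragraph are a description and are not read against those shares. Of 40 further serpins listed, 24 were measured and 7 were tested in the first comparison. There 2 rose (Serpina3f and Serpina3i) and 2 fell (Serpinb1b and Serpinf1), with a median log2 ratio of -0.10, and in the age comparison 0 of 5 tested rose or fell. The falls rest on weakly expressed genes, and 0 of these serpins fell with a pseudocount of 5. Serpinf1, the gene of a serpin of the extracellular space, fell from 5.30 to 0.369 CPM, but its log2 ratio was -0.94 with a pseudocount of 5. Of the proteases and receptors that protease nexin-1 or its targets act on, 2 of 6 tested rose in young TRM. These were F2rl1, a protease-activated receptor (14.7 to 59.8 CPM), and Plau, the gene of urokinase (0.197 to 1.93 CPM, not past the threshold with a pseudocount of 5). The thrombin receptor gene F2r had 125, 213 and 197 CPM, and none of the 6 passed the threshold in the age comparison.

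Of 13 other cathepsins and legumain, 10 were tested in the first comparison, where 1 rose and 1 fell, and 11 in the age comparison, where 1 rose and 0 fell. The shares over all tested genes were 4.18% risen and 3.6% fallen in the first comparison, and 2.25% and 1.15% in the age comparison. These counts are a description and are not read against those shares. The median log2 ratios of the list were -0.25 and 0.16. Ctss, the gene of the antigen-processing protease cathepsin S, rose from 40.5 to 102 CPM and stood at 89.2 CPM in aged TRM, the order seen for Ctsw. Ctsz, the gene of cathepsin Z, fell from 47.0 to 20.7 CPM and rose to 46.0 CPM in aged TRM, the order seen for Cst7, though its rise had a log2 ratio of 0.99 with a pseudocount of 5. Ctsd, an aspartic protease of lysosomes and the most abundant of this list in TPM, had 402, 246 and 318 CPM and passed the threshold in neither comparison. Of the cystatins and CTLA-2 genes, 3 and 4 were tested, and Ctla2b in the age comparison was the single gene that passed. The broadly expressed inhibitor genes Cst3 and Cstb had 49.1, 43.1 and 50.7 CPM and 36.2, 33.8 and 35.7 CPM.

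**Figure D5:**
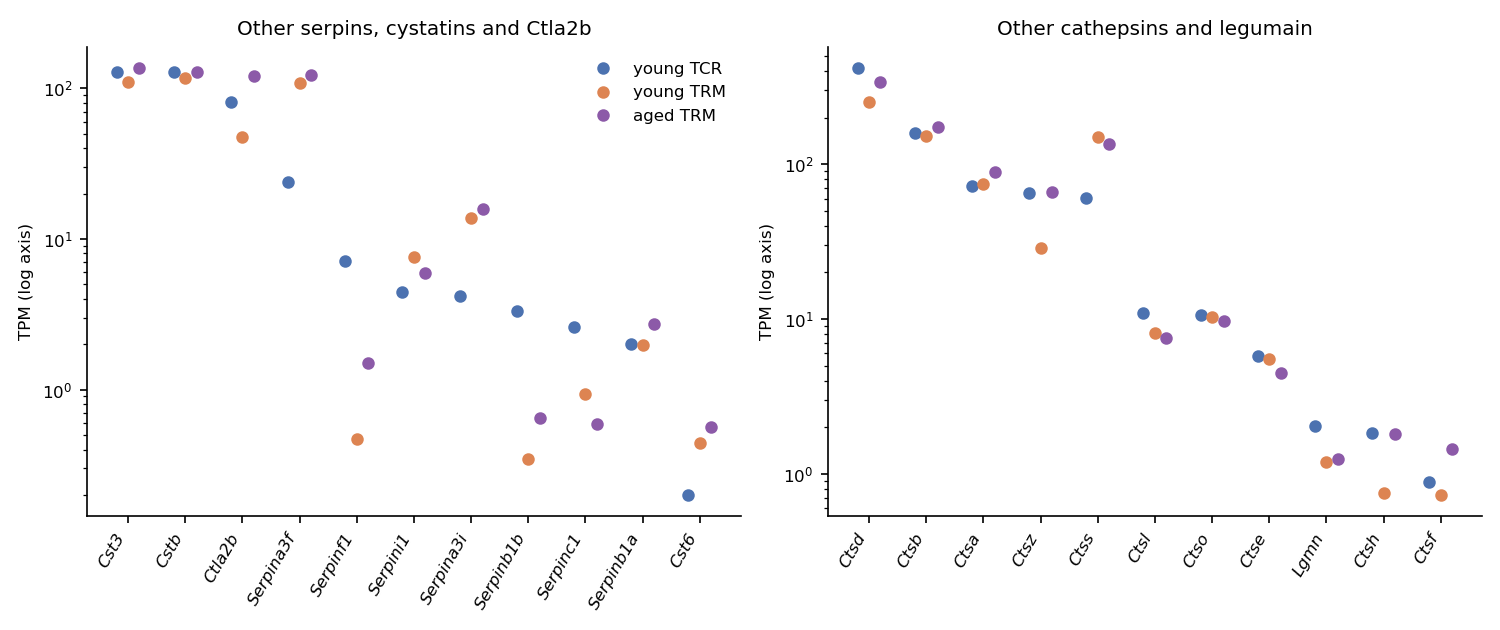
Deposited TPM (vertical log axis, average of the columns) of the tested other serpins, cystatins and Ctla2b (left) and other cathepsins and legumain (right) in young TCR, young TRM and aged TRM, ordered by the young TCR value. Serpina3f, Serpina3i and Ctss are lowest in young TCR, Ctsz is lowest in young TRM, and Cst3 and Cstb stay close together over the libraries.

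A list of granule genes, made of granzymes, perforin and others that are not proteases, fell with the clade B serpins in part. Over all tested genes, 3.6% fell and 4.18% rose in the first comparison, and 2.25% rose and 1.15% fell in the age comparison. The counts below describe this list and are not read against those shares. Of 13 granule genes tested in the first comparison, 4 fell (Prf1, Gzmm, Gzma and Gzmb) and 0 rose, with a median log2 ratio of -0.11, and Gzmm did not pass with a pseudocount of 5 (-0.57). Gzmc had 31.5 and 63.5 CPM, a log2 ratio of 0.99 just short of the threshold. With column 1 alone 1 gene of this list rose (Igf2r), and with column 2 alone 2 rose (Gzmc at 1.03 and Gzmk at 1.09). In the age comparison 7 of 16 rose (Gzma, Gzmb, Gzmc, Gzmd, Gzme, Gzmf and Gzmg) and 0 fell, with a median of 0.78, and Gzmg did not pass with a pseudocount of 5 (0.59). Gzme, Gzmf and Gzmg had 0.426, 0.227 and 0.114 CPM in young TRM, under the filter of 1 CPM. They were tested only through their aged TRM levels of 11.4, 7.06 and 2.71 CPM, so they could enter only as higher. They add to both the count of risen genes and the median.

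The genes most like Serpinb9 in both log2 ratios, among 9209 genes of at least 10 CPM in 1 library, were Ccl5, Crabp2, Slc1a2, Batf and Slco4a1, at distances of 0.05 to 0.49 on the log2 scale over the 3 libraries. Ccl5, a chemokine gene, stood at 32.3, 4.74 and 15.005 CPM and was nearest. With a pseudocount of 5 the log2 ratio of aged TRM against young TRM was 1.04 for Ccl5 and 1.37 for Serpinb9. The distances were computed with a pseudocount of 1 only, so the order among weakly expressed genes may depend on it. Nearest to Serpinb6b were Tg, H2-Q10, Ptpn5, Bst1 and Havcr2, at distances of 0.37 to 0.66. Havcr2, the gene of the inhibitory receptor TIM-3, stood at 61.8, 8.03 and 34.3 CPM.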

How the data were processed

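RNA of 3 samples was extracted with a column kit and sequenced on a HiSeq instrument, per the labels' protocols. The submitters' processing notes list Bowtie (no version) and GRCm38, also called mm10; neither a counting program nor an annotation is named in the sources used here. The deposited table held estimated counts of reads, which need not be whole, and TPM, a unit scaled by transcript length, in 2 columns per sample, per the file headers. A further 24 value columns were not used. Counts were rounded and summed per sample; the columns held between 16084855 and 20245228 reads. Samples were grouped by title.

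Libraries were scaled by TMM factors of edgeR 4.0.16 in R 4.3.3, and log2 ratios with a pseudocount of 1 CPM were computed in Python 3.11.15 (numpy 2.4.6, pandas 2.3.3, scipy 1.17.1) for genes of at least 1 CPM in 1 of the libraries compared. The ratio intervals are 95% Clopper-Pearson intervals of the split of reads, and the calling rule was tested on simulated data. Alternatives were scaling by totals or by DESeq2 1.42.0 size factors, a pseudocount of 5, at least 10 CPM, no filter, the authors' TPM, and each column alone. Of the gene IDs, 17071 matched the RefSeq table of GRCm38.p6, and 23 symbols stored as dates were restored from it. Promoter sequences are RefSeq's, coding sequences GENCODE's, aligned with Biopython 1.88. A planned comparison of protein sequences was not made, and 1 listed gene is not reported here.

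The members, gene lists and comparisons were chosen with earlier results of these data known. All 10 members are named, genes of the lists may be named where they rose or fell in a comparison, and the 5 nearest genes were taken for Serpinb9 and Serpinb6b. List genes named without a call (Serpinb1a, Ctsb, Ctsd, Ctsl, Cst3, Cstb, F2r, Gzmk and Igf2r), and the chromosome 13 neighbours, were chosen after their values were seen.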

Additional observations from a re-analysis of the deposited data

How the results depend on the processing

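Across 8 alternatives, the 20 log2 ratios of the 10 genes in the 2 comparisons kept their side of the threshold in 19 cases, the exception being Cst7 in aged TRM against young TRM with a pseudocount of 5 (0.99). The ratio of Ctsc in that comparison, close to 0, ran from -0.10 to 0.05, and the other 19 kept their sign. Of 101 ratios of other genes, 87 kept their side under each alternative that gave a value. These were genes of the lists and the genes nearest to Serpinb9 and Serpinb6b, the latter picked for their values in these data. The counts over all genes moved by over 1.5 times with a pseudocount of 5, where 296 rose and 190 fell in young TRM and 87 rose and 62 fell in aged TRM, and with a filter of 10 CPM, where 234 fell in young TRM and 123 rose in aged TRM, both of which leave fewer weakly expressed genes able to pass. Main counts were 484, 417, 260 and 133. Scaling moved the median of all tested genes by less than the 0.1 that would call for a correction. No paired analysis was possible because each group has 1 sample, and for the same reason no sample could be left out. Serpinb9b in young TRM rests on 38 reads, the fewest of any member, and some related genes rest on fewer (Plau on 8 in young TCR, Serpinb1b on 9 and Serpinf1 on 13 in young TRM). Of the granzyme genes that rose in aged TRM, Gzmg had 4 reads in young TRM, Gzmf 8 and Gzme 15.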
